A study of Mus musculus with 6 samples.

Results

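The 9 genes described here encode dendrin and 8 scaffold proteins of the postsynaptic density, the protein layer under the receiving membrane of excitatory synapses. They were taken by symbol from the 43346 genes counted in cortical cell cultures of the mouse, and all 9 were found: Ddn, Dlg2, Dlg4, Shank1, Shank2, Shank3, Homer1, Dlgap1 and Dlgap3. The set was chosen by symbol with its values of 10HDA against vehicle in these same libraries (CPM, pooled and within cultures) already known. Those values are therefore given as a description. Where the number of the 9 among the genes called over the whole table is printed, it stands beside the share of all genes called, is not an independent test of the set, and nothing is read from it.

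The cultures came from Cyp19-EGFP embryos of gestational day 15.5, genotype SRY+ in the labels, whereas the study's methods give C57BL/6. Each of cultures 1, 3 and 4 gave 1 library with vehicle (DSMO in the labels) and 1 with 10HDA at 1 mM, so there were 3 libraries per treatment. 10HDA is 10-hydroxy-2-decenoic acid, a lipid that honeybees make for royal jelly. The EGFP reporter strain, the sex genotype and the age were the same in both treatments. The number of embryos behind a culture and the duration of the treatment are not given in the sources used here. The cultures are mixed, and in such bulk RNA fewer cells of a type and less RNA per cell cannot be told apart.

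The libraries held 9144736 to 13367194 counts on genes. The 12 shared neuron markers summed to 8641 to 9035 CPM (each count relative to the scaled total of its library) with vehicle and to 7252 to 7920 CPM with 10HDA. All 8 markers of excitatory neurons, a main site of this density, passed the limit for testing, whereas 5 microglial markers summed to under 1 CPM in every library and 1 of them was at 0 throughout. All 6 libraries are labelled SRY+, and the counts of sex-linked genes went against that label. In culture 1, the 4 Y-linked genes summed here together reached 8.87 CPM in the vehicle library and 9.10 CPM in the 10HDA library, where no library of cultures 3 and 4 had less than 95.7 CPM. Xist, an RNA made from the inactive X chromosome of females, had 1010 and 1413 CPM in culture 1, but also 421 and 394 CPM in culture 3 and 825 and 632 CPM in culture 4. The values of the 9 genes are given for each culture, and counts of calls also without culture 1.

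In an excitatory synapse the scaffold is built in layers. PSD-95 and PSD-93, encoded by Dlg4 and Dlg2, lie under the membrane and hold glutamate receptors and adhesion proteins. The SAPAP proteins, encoded by the Dlgap genes, bridge them to the Shank proteins, and Shank binds Homer, which links to metabotropic glutamate receptors and to calcium stores. Dendrin is a proline-rich protein of the postsynaptic density whose mRNA is carried into dendrites, and it is also found in the podocytes of the kidney. Deletions or mutations of SHANK3 are a known cause of neurodevelopmental disorder in humans.

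The contact of the SAPAP proteins with Shank, which is only a part of their bridging role, is written at the end of their coding sequence. The last 30 coding bases, stop codon included, are shown for the 2 measured members and their 2 relatives, with the last 12 bases before the stop in capitals. Those 4 codons encode the tail that the PDZ domain of Shank proteins holds. All are on GRCm38, from GENCODE transcripts.
Dlgap1: tacatccccgaggcgCAGACCCGGCTCtga
Dlgap2: tacatccctgaggccCAGACGCGGCTCtga
Dlgap3: tacatccccgaggccCAGACCAGGCTGtga
Dlgap4: tatgtccccgaggccCAGACCAGGCTCtaa
Of the 12 bases in capitals, 9 are identical in all 4 genes, and of the whole 30 bases 22 are. This end was carried by 8 of 10 complete coding transcripts of Dlgap1 and by 3 of 3 of Dlgap3. Such likeness is short compared with a read of 50 bases. No stretch of 50 bases was shared between any pair of the 9 genes, so counts could not be split among them by identical sequence.

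Ddn has a second gene on the opposite strand. Its exon shares 177 bases with the antisense gene B130046B21Rik, at chr15:98807024-98807200 on GRCm38, and all 177 lie in the 2133 coding bases of Ddn. The stretch is printed on the Ddn strand because reads from it could belong to either gene if strand was not used in counting, which is not stated.
Ddn: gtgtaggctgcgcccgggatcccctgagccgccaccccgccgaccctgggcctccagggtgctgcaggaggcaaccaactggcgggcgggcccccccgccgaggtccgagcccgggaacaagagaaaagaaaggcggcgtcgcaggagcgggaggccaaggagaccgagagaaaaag
The antisense gene itself had 13 to 35 counts per library, which over the 6 libraries came to 2.14% of the counts of Ddn. Shank1, Shank3 and Dlgap1 also overlap exons of an opposite-strand gene, and the share of their 50-base stretches found elsewhere was 3.29%, 2.41% and 0.298%. Dlg2 shares 75 and 150 exon bases with Gm45159 and Gm45131 on its own strand, which were not among the genes counted. Ddn lies at chr15:98803777-98809490 on the minus strand, and the other 8 genes are on the plus strand of their chromosomes.

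All 9 genes were well above the limit for testing, which was 10 CPM in 3 libraries. Each passed it in all 6 libraries, with 698 to 6605 counts per gene and library. Their levels were compared per length, as CPM per kilobase of the merged exons of the gene model. Dlg4 led, with 86.7 ± 9.72 CPM per kilobase in vehicle (SD, n = 3), and its lowest library at 79.0 was above every library of the next gene, Shank1. Shank1 had 49.6 ± 18.1 and was spread from 30.4 to 66.2, so that it overlapped Dlgap3.

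Dlgap3 and Ddn had nearly the same vehicle level, 31.5 ± 1.96 and 30.7 ± 1.38 CPM per kilobase, and their ranges overlapped. Every library of Ddn was above every library of Shank3, which had 19.2 ± 1.92. Shank3, Dlg2 and Shank2 could not be ordered, with 19.2, 18.9 ± 5.13 and 18.1 ± 4.31. Shank2 overlapped Dlgap1, at 12.4 ± 2.40, and Homer1 was lowest at 6.87 ± 0.861, below every library of Dlgap1. Among all 10520 tested genes, these vehicle levels ran from percentile 94.7 for Dlg4 to percentile 29.1 for Homer1. The merged model of Homer1 is 10502 bases long, and its short and long coding transcripts, of 543 to 1113 coding bases, are not separated in counts per gene. The order of the means was the same with 10HDA.

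**Figure D1:**
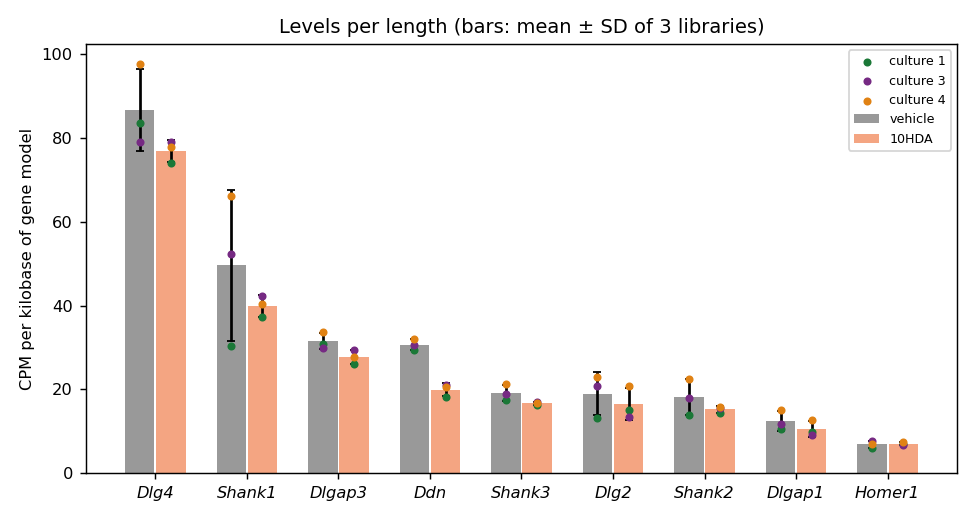
Level of each gene as CPM per kilobase of gene model (vertical axis), with vehicle in grey and 10HDA in orange. Bars are means of 3 libraries, error bars are SD, and dots are single libraries coloured by culture. Dlg4 is highest at 86.7 with vehicle and Homer1 lowest at 6.87, and the vehicle dots of Shank1 spread from 30.4 to 66.2.

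The genes differed widely in how far the 3 vehicle cultures lay apart, a measure that does not use the treatment. The coefficient of variation (SD as a percentage of the mean) was 36.4% for Shank1, 27.2% for Dlg2 and 23.8% for Shank2, which are at percentiles 99.3, 97.3 and 95.1 of tested genes. It was 4.48% for Ddn and 6.20% for Dlgap3, against a median of 10.7% over all tested genes. Culture 1 was the lowest vehicle culture for 7 of the 9 genes and culture 4 the highest for 8, while 36.6% and 32.4% of all tested genes had that position. For Shank1 the level in vehicle culture 4 was 2.18 times that in culture 1, and for Ddn it was 1.09 times.

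With 10HDA the cultures lay closer together for 8 of the 9 genes, and for 61.3% of all tested genes. Shank1 went from 36.4% to 6.61% and Shank2 from 23.8% to 5.54%. Dlg2 and Dlgap1 stayed spread, at 23.5% and 18.1% with 10HDA. Ddn was the exception, with 4.48% in vehicle and 8.13% with 10HDA. With 3 libraries each, these spreads are imprecise and were not compared by a test.

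Ddn had the clearest separation of treatments. It had 109.8, 114 and 120.1 CPM with vehicle in cultures 1, 3 and 4, and 67.6, 79.0 and 76.7 CPM with 10HDA. The highest 10HDA library was well below the lowest vehicle library, and the gene was lower in 3 of 3 cultures. The means were 115 ± 5.14 and 74.4 ± 6.05 CPM (SD, n = 3 each), a ratio of 0.648, that is, a log2 fold change of -0.63 (standard error 0.0998). Within cultures the log2 change was -0.70, -0.53 and -0.64.

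Of all 10520 tested genes, edgeR's quasi-likelihood test called 66 at an adjusted p under 0.1 (0.627% of those tested), 45 lower (0.428%) and 21 higher (0.2%) with 10HDA. Ddn was the only one of the 9 genes among them. With culture as a replicate block 945 genes were called (8.98%), and again Ddn alone of the 9. Without culture 1, 2 genes were called in all and 0 of the 9 without the block, and 869 of 10234 and 4 of the 9 with it. Without culture 3, 0 of all 10237 genes were called without the block, and so 0 of the 9. With it 1089 were called, 1 of the 9 among them. Without culture 4, 35 of 10319 genes and 0 of the 9 were called without the block, and 358 and 1 with it. The log2 fold change of Ddn was -0.57 without culture 1, -0.67 without culture 3 and -0.61 without culture 4.

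Dlg4 and Dlg2, which encode the membrane-proximal scaffolds, overlapped between treatments. Dlg4 had 416, 393 and 486 CPM with vehicle and 369, 393 and 388 with 10HDA, so that culture 3 was level and the others were lower. Its means were 432 ± 48.4 and 383 ± 12.9 CPM, and the log2 fold change was -0.17 (standard error 0.106). Dlg2 had 135, 214.5 and 236 CPM with vehicle and 157, 138 and 214 with 10HDA. It was higher with 10HDA in culture 1 and lower in the other cultures, and its pooled log2 fold change was -0.21 (standard error 0.204).

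The 2 SAPAP genes were lower with 10HDA in 3 of 3 cultures. Dlgap3 had 139, 135 and 152 CPM with vehicle and 118, 132.5 and 125 with 10HDA, and the groups did not overlap, by a margin of under 3 CPM. Its means were 142 ± 8.81 and 125.0 ± 7.46 CPM and its log2 fold change was -0.19 (standard error 0.0959). Dlgap1 had 179, 197 and 257 CPM with vehicle and 167, 155 and 216 with 10HDA, and here the treatments overlapped, since culture 4 was high under both. Its log2 fold change was -0.24 (standard error 0.156).

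The 3 Shank genes shared an order of cultures, with the lowest log2 change in culture 4 and the highest in culture 1. Shank1 had 252, 433 and 549 CPM with vehicle and 308, 351.5 and 334.5 with 10HDA. The log2 change was 0.29 in culture 1, -0.30 in culture 3 and -0.71 in culture 4, so the sign depended on the culture and the pooled value was -0.31 (standard error 0.216). Shank2 followed the same order of cultures, with 147.5, 191 and 239 CPM with vehicle, 152, 166 and 168 with 10HDA, and a pooled log2 fold change of -0.25 (standard error 0.151). Shank3 had 154, 169 and 188 CPM with vehicle and 145, 151 and 149 with 10HDA. It was lower in 3 of 3 cultures without overlap, by a log2 fold change of -0.20 (standard error 0.0995).

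Homer1, whose product binds Shank at the inner face of the density, did not go with the others. It had 63.0, 81.0 and 72.6 CPM with vehicle and 72.9, 69.8 and 76.6 with 10HDA, and the 10HDA libraries lay inside the vehicle range. Its means were 72.2 ± 9.03 and 73.1 ± 3.38 CPM, and the log2 fold change was 0.02 (standard error 0.113), and the sign was negative when culture 1 or culture 4 was left out.

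**Figure D2:**
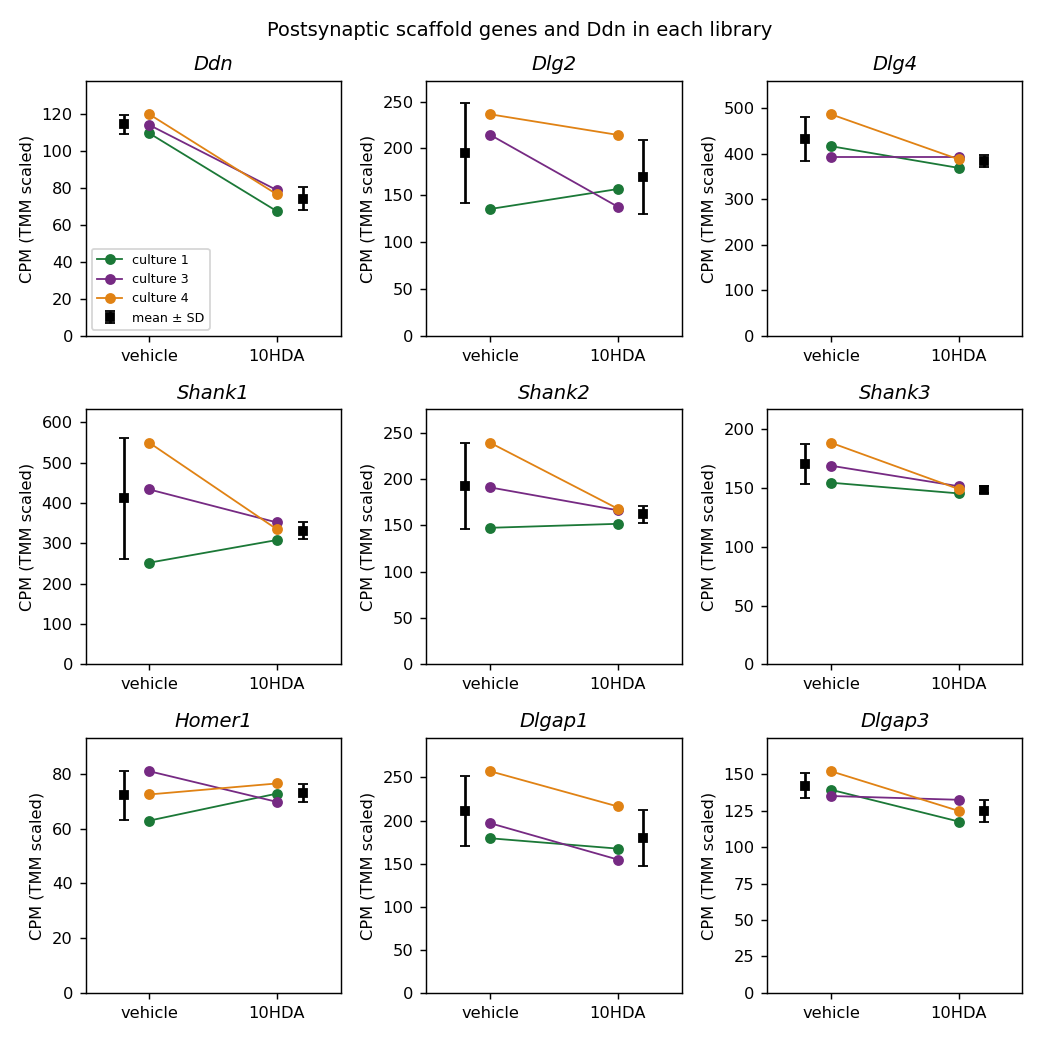
CPM of each gene in every library (vertical axis, from 0), with vehicle on the left and 10HDA on the right of each panel. Lines join the libraries of a culture and black squares show the mean ± SD of 3 libraries. In the panel of Ddn all 3 lines fall, from 109.8 to 120.1 CPM down to 67.6 to 79.0, whereas the lines of Shank1 cross and converge and those of Homer1 go both ways.

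Over the 9 genes, 8 had a log2 fold change below 0, with a median of -0.21 against -0.01 over all tested genes, of which 52.1% were below 0. The treatments did not overlap for 3 genes, Ddn, Shank3 and Dlgap3, all lower with 10HDA (7.44% of all tested genes were lower and 5.96% higher without overlap). Ddn, Shank3, Dlgap1 and Dlgap3 were lower in 3 of 3 cultures (21% of all tested genes). The median over the 9 was -0.09 in culture 1, -0.21 in culture 3 and -0.33 in culture 4. The pooled median was -0.27 without culture 1, -0.25 without culture 3 and -0.12 without culture 4. There both libraries of the culture were left out. Leaving out 1 library of culture 4 breaks its pair, and the median then depended on which library was dropped. Without the 10HDA library of culture 4 it was -0.28. Without the vehicle library of culture 4 it was smallest in size, at -0.05. Shank1 was then at -0.03, Shank2 at -0.05, Dlgap1 at -0.05, Dlg2 at -0.03 and Dlg4 at -0.06, while Ddn was at -0.57. These counts describe a set chosen with the same values in view.

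**Figure D3:**
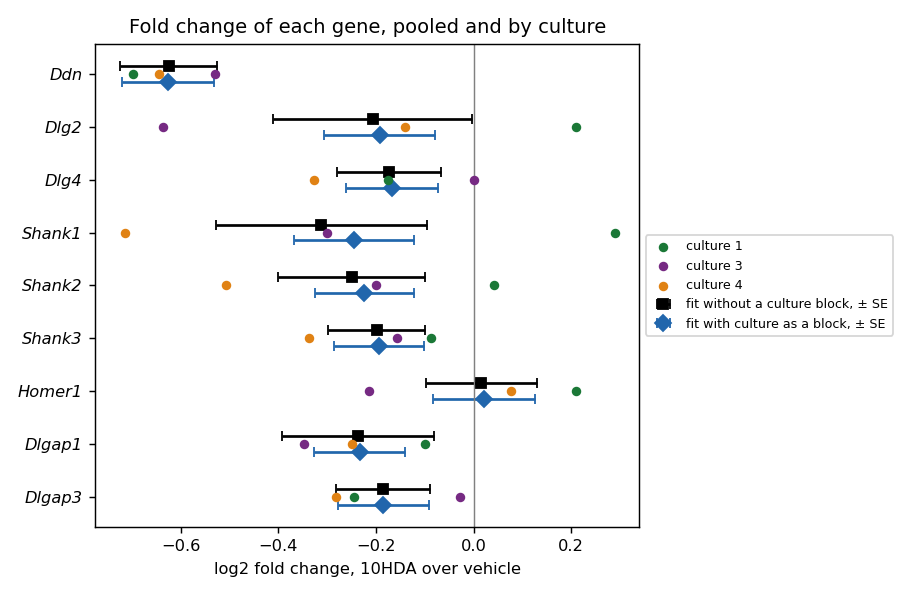
Log2 fold change of each gene, 10HDA over vehicle (horizontal axis). Black squares and blue diamonds are the fits without and with culture as a block, with standard errors, and dots are single cultures. The 3 cultures of Ddn lie together from -0.70 to -0.53, and those of Shank1 run from -0.71 to 0.29.

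The summed shared neuron markers were also lower with 10HDA, by 0.24 on the log2 scale, and 10 of the 12 had a value below 0, with 0 called and 5 called lower with the block. The genes were therefore also expressed within each library as a share of that sum. On this log2 ratio Ddn was lower with 10HDA by 0.43, 0.28 and 0.46 in cultures 1, 3 and 4, with a mean difference of -0.39 (SD of the 3 paired differences 0.0955), and the treatments did not overlap. The mean differences of Dlg2, Dlg4, Shank1, Shank2, Shank3, Dlgap1 and Dlgap3 lay between -0.01 and 0.07, and each of these 7 overlapped between treatments. Homer1 was higher in every 10HDA library than in every vehicle library on this ratio, by 0.26 (SD 0.221). Because the sum itself was lower by 0.24, any gene of unchanged CPM rises by about that much on this ratio. The log2 fold change of Homer1 in CPM was 0.02. The share of all tested genes without overlap on this ratio was not computed.

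**Figure D4:**
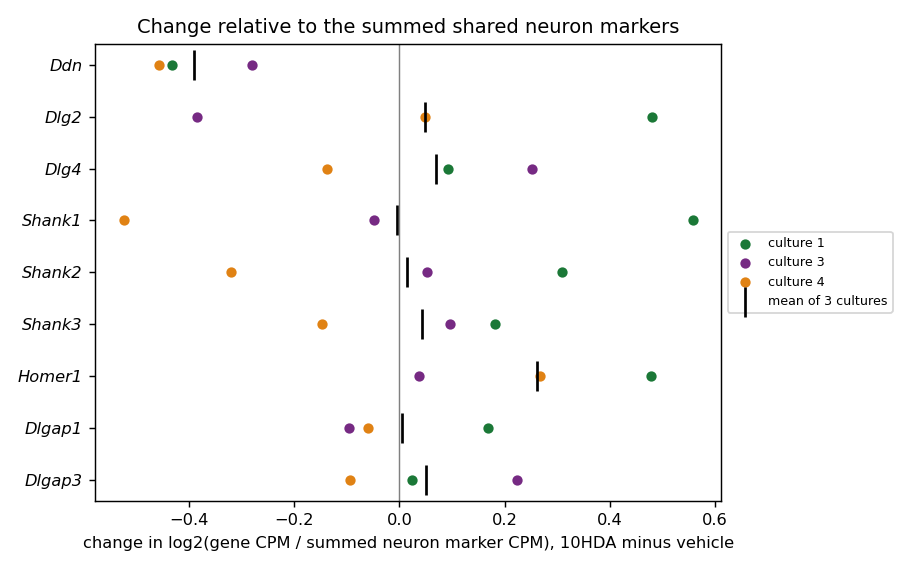
Change in the log2 ratio of each gene to the summed shared neuron markers, 10HDA minus vehicle (horizontal axis). Dots are cultures and black ticks the mean of the 3 cultures. The tick of Ddn is at -0.39 and that of Homer1 at 0.26, and the other 7 ticks lie between -0.01 and 0.07 with their cultures on both sides of 0, as in Shank1.

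The ratio depends on the markers chosen. Against the summed excitatory neuron markers, which ranged from 1165 to 1426 CPM with vehicle and from 1095 to 1289 CPM with 10HDA, the difference of Ddn was -0.53, again without overlap. That of Homer1 was 0.12, and its treatments then overlapped. The other 7 lay between -0.14 and -0.07, each with overlap. Markers of other cells moved as well. The 11 astrocyte markers summed to 1554 to 1833 CPM with vehicle and 1173 to 1427 CPM with 10HDA, and 9 of the 10 tested were below 0, from -1.28 for Gfap to 0.06, with 4 called lower. The 9 interneuron markers summed to 508.8 to 642 CPM with vehicle and 428.5 to 581 CPM with 10HDA, and the 5 intermediate progenitor markers to 43.2 to 59.9 CPM and 66.9 to 98.0 CPM. The progenitor sum was mostly Insm1 (means 26.7 and 44.6 CPM) and Btg2 (16.7 and 26.2 CPM). The rest were under the limit for testing, with Neurog2 at 3.49 and 4.92, Eomes at 2.47 and 2.57 and Neurog1 at 0.0277 and 0 CPM. Radial glia markers summed to 770.1 to 935 and 709.9 to 793 CPM, oligodendrocyte lineage markers to 329 to 409 and 248 to 354 CPM, endothelial and pericyte markers to 16.8 to 18.7 and 7.64 to 10.6 CPM, and meningeal markers to 9.72 to 11.9 and 6.20 to 6.35 CPM. The endothelial and meningeal sums were each mostly 1 gene, Pdgfrb (means 15.4 and 7.22 CPM) and Dcn (8.98 and 4.39 CPM). Of the 4 meningeal markers 0 reached the limit for testing. Col1a1, Col1a2 and Lum had means of 1.06, 0.473 and 0.306 CPM with vehicle and 1.02, 0.594 and 0.267 CPM with 10HDA. Of the tested markers, 8 of 9 were below 0 for interneurons (from -0.46 to 0.04, 0 called), 4 of 6 for radial glia (from -0.41 to 0.32, 0 called) and 4 of 6 for the oligodendrocyte lineage (from -1.44 to 0.24, with Cspg4 called at -0.92), while both of the intermediate progenitor list were above 0 and not called. These calls are without the block. The value of -1.44 was Sox10, which was over the limit for testing only in its vehicle libraries. It had 11.7 to 18.3 CPM with vehicle and 2.15 to 9.38 CPM with 10HDA. Cspg4, at 16.6 to 20.7 and 8.50 to 11.4 CPM, also needed its vehicle libraries to pass. With culture as a block, 6 astrocyte, 4 interneuron, 3 oligodendrocyte lineage, 1 excitatory neuron and 1 endothelial and pericyte marker were called lower. Of radial glia markers 1 was called lower and 1 higher, and 2 of 2 tested progenitor markers were called higher. Of all tested genes, 5.08% were called lower and 3.91% higher with the block. The most abundant tested marker did not always go with its list. It was Ncam1 at -0.26 for shared neuron, Neurod6 at -0.15 for excitatory neuron and Slc1a3 at -0.23 for astrocyte markers. It was Gad1 at 0.04 for interneurons and Olig1 at 0.06 for the oligodendrocyte lineage, against the sign of most of their lists. It was Fabp7 at -0.41 for radial glia, Insm1 at 0.74 for progenitors and Pdgfrb at -1.07 (adjusted p = 0.0428), the 1 tested marker of endothelium and pericytes. Pdgfrb was over the limit for testing only in its vehicle libraries, at 14.9 to 15.8 CPM, against 6.03 to 9.45 CPM with 10HDA. Its fold change and its calls are therefore a description only. The part of these shifts in the levels of the 9 genes was not tested.

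The wider postsynaptic density was followed in 46 other genes, listed by role, with Magi2 on 2 of the 5 lists. Of these, 43 were tested, 37 had a log2 fold change below 0 and 6 above, and the median was -0.19. By culture the median was -0.04 in culture 1, -0.19 in culture 3 and -0.25 in culture 4. The pooled median was -0.22 without culture 1, -0.19 without culture 3 and -0.13 without culture 4. It was -0.08 without the vehicle library of culture 4 alone. For comparison, the 12 shared neuron markers had a median of -0.26. edgeR called 2 of the 43 genes lower and 0 higher (against 0.627% of all tested genes). These were Baiap2 and Nrgn. With culture as a block 9 were called lower and 0 higher, where 5.08% and 3.91% of all tested genes were called.

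Baiap2, which encodes IRSp53, a membrane-bending protein that binds Shank and PSD-95 in spines, had 96.8, 85.3 and 99.4 CPM with vehicle and 65.2, 64.5 and 58.6 with 10HDA. The treatments did not overlap, and the log2 fold change was -0.58 (standard error 0.103, adjusted p = 0.0497). Nrgn, which encodes the calmodulin-binding protein neurogranin and whose mRNA is also found in dendrites, had 90.5, 90.0 and 97.2 CPM with vehicle and 57.3, 67.9 and 49.0 with 10HDA. Its log2 fold change was -0.67 (standard error 0.123, adjusted p = 0.0499). Without a block, neither was called when any 1 culture, the vehicle library of culture 3 or 4, or the 10HDA library of culture 1 was left out, or with library size alone as the scaling.

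Among 14 relatives of the scaffolds, 13 had a value below 0 and 0 were called, at a median of -0.20, and 7 had an unadjusted p under 0.05 (10.1% of all tested genes). Dlgap2, the SAPAP gene shown above, had 11.4, 14.7 and 19.5 CPM with vehicle and 9.01, 8.51 and 11.5 with 10HDA, a log2 fold change of -0.66 (adjusted p = 0.301). Its 10HDA libraries of cultures 1 and 3 were under the limit for testing, so Dlgap2 passed through its vehicle libraries. Magi3, which encodes a membrane-associated scaffold with PDZ domains, had a log2 fold change of -0.35 (adjusted p = 0.392). With culture as a block both were called, with adjusted p = 0.00809 and 0.0375, and so were Lrrc7, whose product is densin, and Grip1, whose product binds AMPA receptors, at adjusted p = 0.0129 and 0.0938. The exception in direction was Homer3, a relative of Homer1, at 0.29 without overlap.

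Among 12 signalling proteins of the density 10 had a value below 0 and 0 were called without the block, with 1 at an unadjusted p under 0.05. With culture as a block 2 were called lower and 0 higher. Sipa1l1, which encodes the Rap GTPase activator SPAR, had a log2 fold change of -0.23 (adjusted p = 0.559). Of 11 actin links and adaptors 8 were below 0, at a median of -0.13, and Baiap2 was the 1 called.

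Of 5 binding partners of dendrin 4 were tested, with 0 called and 0 at an unadjusted p under 0.05. Actn4, an actin crosslinker, and Magi2, a scaffold of synapses and podocytes, each had a log2 fold change of -0.20 (adjusted p = 0.527 and 0.644). Nphs1, which encodes the podocyte protein nephrin, was at a mean of 0.134 CPM in vehicle and was under the limit for testing. Of 5 other mRNAs carried into dendrites 3 were tested and all 3 were below 0. Beside Nrgn these were Map2 at -0.22 and Camk2a, the kinase subunit most abundant in the density, at -0.44 (adjusted p = 0.191, and 0.00695 with culture as a block). Arc and Bdnf were under the limit, with means of 2.80 and 6.79 CPM in vehicle.

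**Figure D5:**
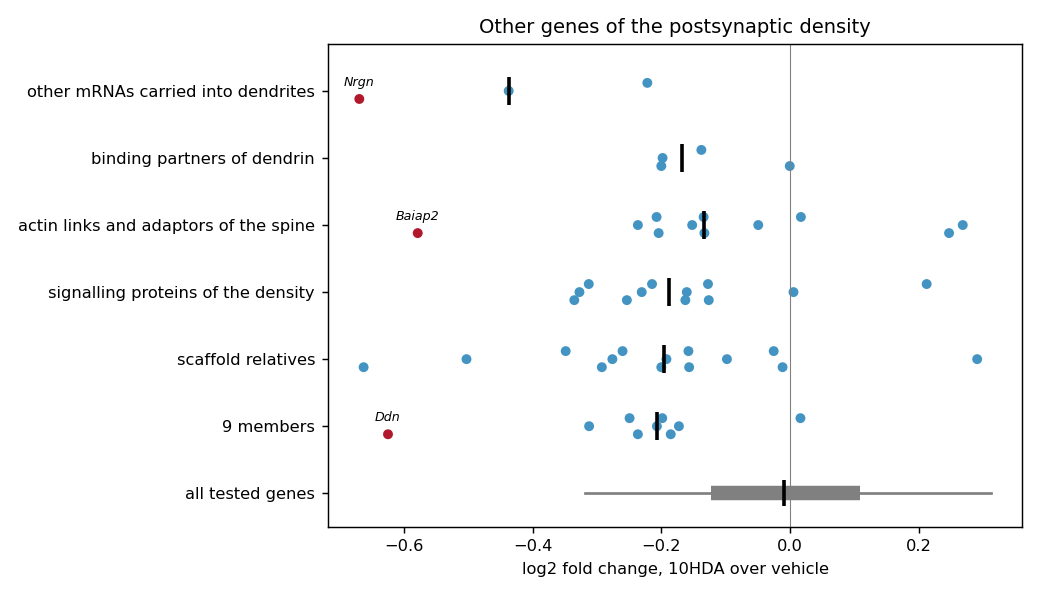
Log2 fold change, 10HDA over vehicle (horizontal axis), for the 9 genes and 5 lists of other postsynaptic genes. Each dot is a gene, red where the adjusted p was under 0.1, and black ticks are medians. The grey bar and line span the 25th to 75th and the 5th to 95th percentile of all tested genes, from -0.12 to 0.11 and from -0.32 to 0.31, and most dots lie left of 0.

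The genes whose levels followed Ddn most closely over the 6 libraries were named by the Pearson correlation of log2 CPM. They were Kazn (0.999), Pak6 (0.998), Sulf2 (0.994), Fam84b (0.993) and Tcerg1l (0.990). These are descriptions over 6 libraries that share 3 cultures and 2 treatments, and the highest values among 10520 genes are high by selection. Sulf2, an extracellular sulfatase that edits heparan sulfate, had 131.5 ± 7.99 CPM with vehicle and 90.5 ± 6.54 with 10HDA, and Fam84b had 23.3 ± 0.498 and 15.6 ± 1.04. Pak6, a p21-activated kinase, had 213 ± 5.02 and 178 ± 6.72 CPM.

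Promoter windows of RefSeq (GRCm38.p6), from 250 bases before to 50 after a start, were held for 6 of the 9 genes, with 12 windows among them. Ddn, Shank1 and Shank2 had none. The search covered both strands for a few short motifs, of which the response element of the estrogen receptor was included because 10HDA is described as estrogenic. The full estrogen response element, GGTCA followed after 3 bases by its reverse complement, was in 0 of the 12 windows and in 0.07% of all 32851 windows. Its shorter part GGTCA, which overlaps the full element, was in 5 of 12 and in 40.5% of all windows. The cyclic AMP response element TGACGTCA was in 0 of 12 (1.79% of all windows). Its shorter part TGACG was in 2 of 12 (20.8% of all windows), 1 window of Homer1 and 1 of Dlg4, the lowest and the highest gene per length. These windows are printed with TGACG in capitals, Homer1 at chr13:93303507-93303806 and Dlg4 at chr11:70023732-70024031, both on the plus strand.
Homer1: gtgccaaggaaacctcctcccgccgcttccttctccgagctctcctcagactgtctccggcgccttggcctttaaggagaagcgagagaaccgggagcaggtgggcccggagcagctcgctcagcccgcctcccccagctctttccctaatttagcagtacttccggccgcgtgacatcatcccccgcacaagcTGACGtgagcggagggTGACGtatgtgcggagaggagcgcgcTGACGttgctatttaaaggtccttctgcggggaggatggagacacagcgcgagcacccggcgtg
Dlg4: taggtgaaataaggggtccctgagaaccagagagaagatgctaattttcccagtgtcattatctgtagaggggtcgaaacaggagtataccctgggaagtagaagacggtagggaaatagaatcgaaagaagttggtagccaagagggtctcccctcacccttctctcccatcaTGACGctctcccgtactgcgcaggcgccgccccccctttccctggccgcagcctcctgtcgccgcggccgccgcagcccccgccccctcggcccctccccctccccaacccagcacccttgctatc
Homer1 holds 3 matches and Dlg4 holds 1. The antioxidant response element TGACNNNGC, which can overlap TGACG, was in 4 of 12 windows (12.4% of all), the SP1 box GGGCGG in 2 of 12 (35.7%) and the TATA box TATAAA in 1 of 12 (13.6%). A match describes these letters and is not a site of binding.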

How the data were processed

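RNA from 6 libraries of mouse cortical cultures (3 vehicle, 3 10HDA) was analysed. Per the methods, the authors aligned untrimmed 50-base reads to mm10 with Subjunc (Subread 1.4.4) and counted them on Gencode gene models with featureCounts. The deposited values are raw counts, not normalized, and the kit marks strand. Symbols, positions and lengths came from GENCODE M21 (GRCm38), which matched 98.0% of identifiers.

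Genes with at least 10 CPM in 3 libraries (10520) were scaled by TMM and fitted with edgeR 4.0.16 in R 4.3.3 (glmQLFit, glmQLFTest), with Benjamini-Hochberg adjustment at 0.1. The filter, scaling and threshold follow the methods, which name no model terms, and no culture term was used. Standard errors are the fold change over the square root of F. Values within a culture are log2 ratios of CPM + 0.5. A count of 3 equals 0.224 to 0.328 CPM, for counting error only. The members, gene lists and marker lists were chosen with earlier results of these data known. Named were all 9 members, called genes of each list or else the 2 with the smallest p, the 5 genes most correlated with Ddn (log2 CPM, prior count 2), the most abundant tested marker of each list, and a few genes chosen after their values were seen (Lrrc7, Grip1, Homer3, Map2, Camk2a, Arc, Bdnf, Nphs1, Gfap, Cspg4). The labels give each culture 1 library of each treatment, so culture numbers pair the libraries. Deviations from treatment means correlated at 0.37, 0.24 and 0.62 within cultures 1, 3 and 4 and at -0.45 to 0.18 between cultures. Nothing says that cultures came from separate litters, so p-values measure the spread between these samples. Alternatives were other scalings, DESeq2 1.42.0, other filters, a threshold of 0.05, the culture block, and leaving out libraries or cultures. The block with a culture left out was added after seeing the data. The scripts were tested on simulated data without a culture effect, where the planted changes were larger than the fold change of any member. That test does not show how the fits handle smaller changes or differences between cultures. One gene that the naming rule covers is not reported here.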

Additional observations from a re-analysis of the deposited data

How the results depend on the processing

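Without the block, the 66 calls over all genes became 61 with DESeq2's size factors, 49 with library size alone, 170 with the DESeq2 test, 636 without the filter, 43 at a threshold of 0.05 and 945 with the replicate block. The share of calls that were higher was 31.8% with TMM, 34.4% with DESeq2's size factors and 44.9% with library size alone, where the median of all genes moved from -0.01 to 0.06. The 2 other postsynaptic genes called became 0 with library size alone, 5 without the filter and 9 with the block. Leaving out single libraries or cultures gave 0 to 355 calls over all genes, 0 to 4 other postsynaptic genes and 0 to 1 of the 9 members. At 0 calls, without the 10HDA library of culture 1 and without culture 3, edgeR gave 453 of 10389 and 689 of 10237 tested genes at an unadjusted p under 0.05. With all 6 libraries it gave 1059 of 10520. With the block and a culture left out, the ranges were 358 to 1089, 2 to 13 and 1 to 4 (869, 13 and 4 without culture 1, and 1089, 8 and 1 without culture 3). Ddn kept its direction throughout, from -0.67 to -0.55. In fits without the block it was not called without the vehicle library of culture 3 or 4, the 10HDA library of culture 1, or any whole culture. With the block it was called whichever culture was left out. Homer1 changed sign to -0.050 without vehicle culture 1, -0.017 without 10HDA culture 4, -0.052 without culture 1 (-0.052 also with the block) and -0.0088 without culture 4, and was at 0.14 without culture 3. Dlg2 was at 0.034 with the block and without culture 3. With all 6 libraries the block changed no call of a member, but without culture 1 it moved the count of members called from 0 to 4 (Ddn, Dlg2 at -0.37, Shank1 at -0.49 and Shank2 at -0.33), and without culture 3 or 4 from 0 to 1 (Ddn). The median of the 9 was -0.05 without the vehicle library of culture 4, -0.28 without its 10HDA library and -0.12 without both. The cause of these shifts was not tested. Replicates varied by 11.6% (common biological coefficient of variation), and at least 698 counts stood behind each value of a member.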
